A study of Mus musculus with 12 samples.

Results

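Unpolarized alveolar macrophages of Lmp7 knockout mice were compared with those of wild-type mice, on 3 arrays against 3, chosen by genotype and state from the 12 arrays of the series. Alveolar macrophages are the resident phagocytes of the airspaces, obtained here by lavage of the lungs with 8 washes of 1 ml of PBS. Both groups came from C57Bl/6J animals of 8 to 12 weeks, kept under specific pathogen-free conditions, and both were left without interleukin-4 (IL-4), the state called M0. One group came from Lmp7 k.o. mice and the other from wildtype, or control, mice. The other 6 arrays, 3 of each genotype, were of the same kind of cells exposed to 20 ng/ml of IL-4 for no longer than 24 h (M2), and they are used here for the shared estimate of spread and for a second comparison of the genotypes. The labels do not say how the Lmp7 allele was made, from which strain the targeted chromosome came, whether animals were pooled, or whether replicates came from separate animals. P-values therefore reflect no more than the spread among these arrays, and that spread may be technical.

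Lmp7 is the protein name of Psmb8, one of the inducible catalytic subunits of the proteasome. The proteasome degrades ubiquitin-tagged proteins, and its standard core carries the catalytic subunits encoded by Psmb5, Psmb6 and Psmb7. In cells of the immune system, and after interferon, these are replaced in newly made particles by Psmb8, Psmb9 and Psmb10, which gives the immunoproteasome, known for producing peptides for display on MHC class I molecules. Psmb8 and Psmb9 lie within the MHC, beside the MHC class II genes.

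Illumina BeadArrays measured the intensity of 25697 probes. The intensities were background-corrected, quantile normalized and put on the log2 scale, on which every level and difference below is given. Because a constant is added in the background step, a difference understates the change of a dim gene. A probe counted as detected on an array at a detection p under 0.05, and 9200 probes (35.8%) were detected on at least 3 of the 12 arrays. They represented 6563 named genes, each by its brightest such probe. The share of probes detected was 31.2% ± 3.51 (SD, n = 3) in wild-type and 30.9% ± 4.26 in knockout arrays, a difference of -0.38 percentage points (two-sided exact permutation test, p = 0.9, where the smallest possible is 0.1). The lowest shares, 27.3% and 26.1%, were those of array a of each genotype. Arrays of a genotype correlated at 0.952 to 0.979 and arrays of different genotypes at 0.949 to 0.973. In a principal component analysis of the 6 arrays the genotypes were parted by the second component (25.3% of the variance). The larger first component (35.5%) set array a of both genotypes, at -20.07 and -13.5, apart from the other 4 arrays, at 2.25 to 12.72. On the second component wild-type arrays scored -10.98, -12.91 and -6.58, and knockout arrays 14.19, 7.79 and 8.49. The sialic acid receptor Siglecf, which marks alveolar macrophages, stood at 10.11, 10.24 and 10.17 in wild-type and 10.23, 10.22 and 10.18 in knockout cells, so its level was high and alike on the 6 arrays.

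Few genes passed the test for a genotype difference in unpolarized cells. Of 6563 genes, 45 (0.686%) passed an adjusted p of 0.05 in limma, 25 of them higher (0.381%) and 20 lower (0.305%) in the knockout. The higher genes included MHC class II genes (H2-Aa, H2-Ab1, Cd74), the lipid-hydrolysing enzyme Pla2g7, the apolipoprotein Apoe and the complement subunit C1qb. The lower genes included the nonclassical MHC class I gene H2-M2, the collagenase Mmp13, the oxysterol-producing enzyme Ch25h, the receptor chain Il7r, the scavenger receptor Marco and enzymes of glutathione and peroxide metabolism. The differences of 11 higher and 10 lower genes were of 1 log2 unit or more. The median difference was 0.97 among the higher and -1.01 among the lower genes, against 0.001 among all genes tested. The smallest difference among the 45 was 0.55 in size. On the arrays, the 3 knockout and the 3 wild-type values of all 45 genes did not overlap, which was true of 970 genes in all (14.8%), 485 in each direction (7.39%). At an unadjusted p under 0.05 in limma there were 648 genes (9.87%), 332 higher and 316 lower.

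**Figure D1:**
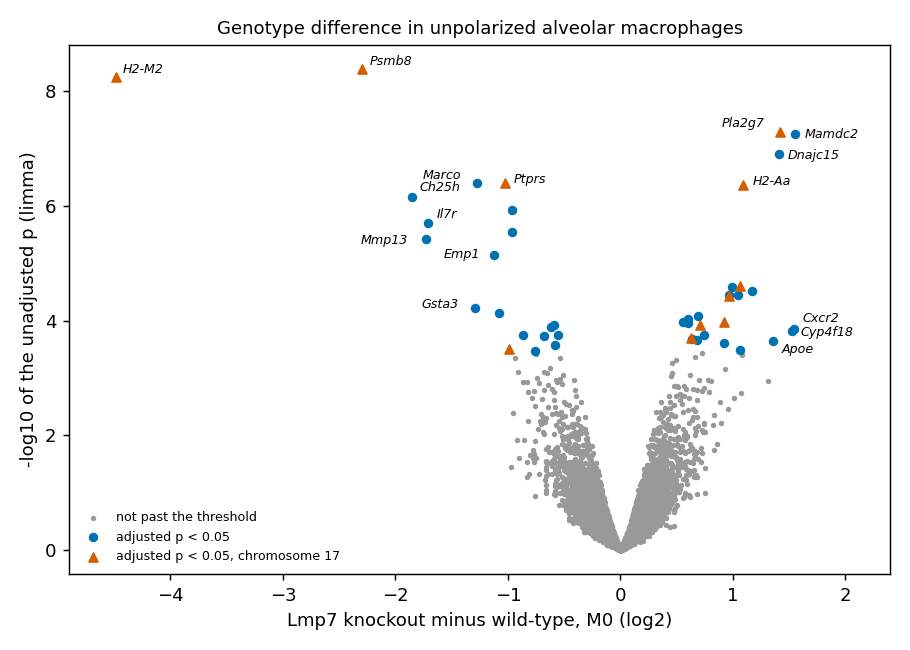
Each point is 1 of 6563 genes, with the knockout minus wild-type difference in M0 cells on the x axis (log2) and the size of the unadjusted limma p on the y axis (-log10). Coloured symbols are the 45 genes past an adjusted p of 0.05, triangles those on chromosome 17. H2-M2 and Psmb8 lie far above the rest on the left.

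Psmb8, the targeted gene, was at background in the knockout. Its level was 7.83, 7.53 and 8.04 in wild-type cells and 5.49, 5.36 and 5.67 in knockout cells. All wild-type arrays detected it and no knockout array did, so the groups were well apart. The model difference was -2.29 ± 0.14 (SE; limma adjusted p = 1.83e-05). As the knockout level is only a bound, Psmb8 was at least 3.43-fold lower. Whether its probe lies within the deleted sequence is not given in the sources used here.

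Psmb9, which encodes the inducible subunit beside Psmb8 on the chromosome, rose by 0.63 ± 0.12 (adjusted p = 0.0358). Its levels were 9.43, 9.08 and 9.04 in wild-type and 9.80, 9.83 and 9.81 in knockout cells, and the highest wild-type array was array a. Without that array the adjusted p was 0.010, and without any other single array it was 0.101 to 0.137. Psmb10, the remaining inducible catalytic subunit, stood at 10.15, 10.11 and 10.10 in wild-type and 10.39, 10.44 and 10.36 in knockout cells. Its groups did not overlap, but the difference of 0.27 ± 0.09 did not pass (adjusted p = 0.300). Psme1, a subunit of the interferon-inducible activator of the proteasome, differed by 0.05 ± 0.11, and its partner Psme2 was below the detection filter. Of the 4 tested genes of this group, 1 was higher and 1, the targeted Psmb8, lower, against 25 (0.381%) and 20 (0.305%) of all 6563.

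The standard subunits that Psmb8, Psmb9 and Psmb10 replace did not pass the test. Psmb5, the standard counterpart of Psmb8, was at 7.75, 7.61 and 7.83 in wild-type and 8.10, 7.92 and 8.34 in knockout cells. The knockout arrays all lay above the wild-type arrays, by 0.39 ± 0.13 on average (adjusted p = 0.338). Psmb6 differed by -0.06 ± 0.12 and Psmb7 by 0.01 ± 0.13. Among the 14 genes of the standard core particle 0 passed, with a median difference of 0.009. Among 23 tested genes of the regulatory particle, activators and assembly factors 0 passed as well, with a median of -0.076. The gene of smallest p there was Psmd1, a scaffold subunit of the regulatory particle, at -0.26 ± 0.11 (adjusted p = 0.476).

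The gene with the largest difference was H2-M2, a nonclassical MHC class I gene. Wild-type cells had levels of 9.52, 9.52 and 9.66 and knockout cells 5.0, 5.16 and 5.08. It was bright on every wild-type array and undetected on every knockout array. The difference was -4.48 ± 0.28 (adjusted p = 1.83e-05), which makes H2-M2 at least 11.7-fold lower. Like Psmb8, H2-M2 lies on chromosome 17, and its call held with any single array left out (adjusted p of at most 3.38e-04).

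Among the chromosomes, the share of tested genes that were called was highest on chromosome 17. There, 11 of 333 tested genes passed (3.3%), 7 higher and 4 lower, against 34 of 6230 elsewhere (0.546%). The next highest share was that of chromosome 3, with 5 of 325 genes (1.54%). By their order in the RefSeq table of assembly GRCm38.p6, 10 of the 11 genes lay among the 90 tested genes from Glo1 to Pla2g7, a stretch around Psmb8 whose ends were set at called genes. The remaining gene was Ptprs, a receptor-type tyrosine phosphatase, 122 tested genes from Psmb8. Of Psmb8 and the 5 tested genes on each side of it, 4 passed: Psmb8, Psmb9, H2-Ab1 and H2-Aa. In M2 cells the share was 15 of 333 genes (4.5%) on chromosome 17 against 1.91% elsewhere, and 7 genes of the chromosome passed in both states. A list of other genes from the MHC, picked by name and not by distance, holds 34 tested genes but not the called genes Glo1, Flot1, Ppp1r11 and Pla2g7. Of these 34, 0 passed in limma, 2 were higher and 3 lower at an unadjusted p under 0.05, and the median difference was -0.017. The labels do not give the strain of the targeted chromosome, so for the genes linked to Psmb8 the loss of the gene and other DNA carried with the targeted allele cannot be told apart. The match of a probe to a single member of the H2 multigene family was also not tested.

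**Figure D2:**
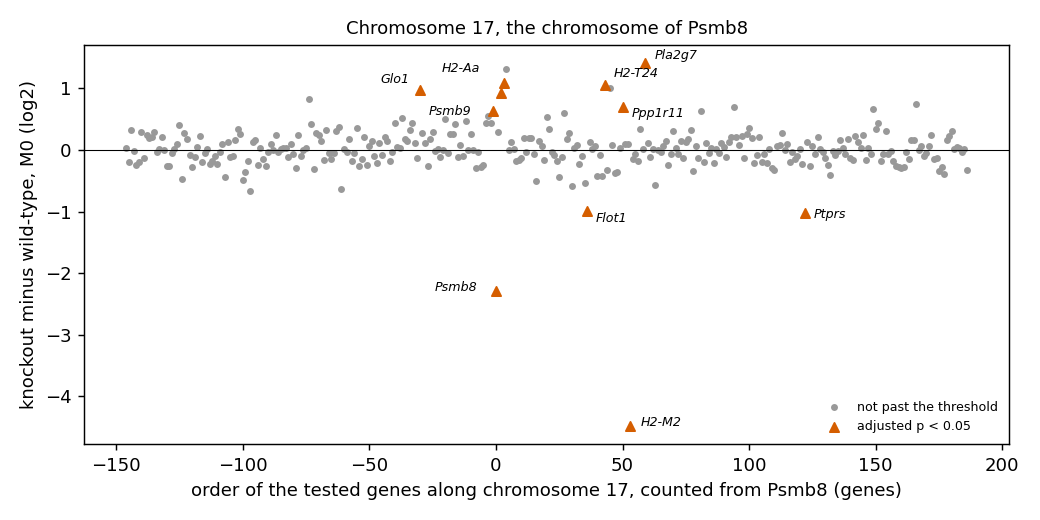
The 333 tested genes of chromosome 17 in their order along it, counted from Psmb8 at 0 (x axis, genes), with the knockout minus wild-type difference in M0 cells (y axis, log2). Triangles are the 11 genes past an adjusted p of 0.05, of which 10 lie between Glo1 and Pla2g7.

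Several of the called genes on this chromosome have no role in antigen presentation. Pla2g7 encodes a secreted phospholipase that hydrolyses platelet-activating factor and oxidised phospholipids. It stood at 7.27, 7.09 and 7.22 in wild-type and 8.68, 8.68 and 8.47 in knockout cells, clearly apart, with a difference of 1.42 ± 0.11 (adjusted p = 9.3e-05). Glo1, which detoxifies methylglyoxal, was at 7.78, 8.10 and 7.87 in wild-type and at 9.07, 8.93 and 8.64 in knockout cells, without overlap. It rose by 0.97 ± 0.15 (adjusted p = 0.0123). Ppp1r11, an inhibitory subunit of protein phosphatase 1, rose by 0.70 ± 0.12 (adjusted p = 0.0269). Flot1, a scaffold protein of membrane microdomains, fell by 0.99 on the log2 scale (SE 0.19, adjusted p = 0.0471). Ptprs stood at 9.90, 10.10 and 10.02 in wild-type and 8.94, 9.07 and 8.94 in knockout cells. It fell by 1.03 on the log2 scale (SE 0.10, adjusted p = 3.54e-04), and its further probes differed by -0.74 and -0.40. The calls of Pla2g7 and Ptprs held with any single array left out. That of Glo1 was lost without any one of 4 arrays, that of Ppp1r11 without any one of 5 and that of Flot1 without any one of 6, at adjusted p of up to 0.0723, 0.113 and 0.161.

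Genes of MHC class II presentation, which loads peptides from ingested material for display to CD4 T cells, rose in part in the knockout. Of the 14 listed genes 10 were tested, 3 passed and all 3 rose, against 25 of 6563 genes among all tested. All 10 differences were above 0, with a median of 0.50 (0.44 with dim genes at their bound), against 3286 of 6563 tested genes with a median of 0.001. In 7 of the 10 the groups did not overlap, the knockout being higher, as in 485 of the 6563 genes tested (7.39%). H2-Ea, H2-Ob, H2-Oa and Ciita, the master regulator of the class II genes, were below the detection filter.

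H2-Aa, the alpha chain of the I-A molecule, was at 8.89, 8.67 and 8.83 in wild-type and 9.82, 9.91 and 9.93 in knockout cells. The groups were about 1 log2 unit apart with little spread, and H2-Aa rose by 1.09 ± 0.10 (adjusted p = 3.54e-04). H2-Ab1, the beta chain of the same molecule, was at 9.28, 8.65 and 8.83 against 9.75, 9.90 and 9.88. Wild-type array a was the closest to the knockout arrays, and H2-Ab1 rose by 0.92 ± 0.16 (adjusted p = 0.0269). Its 3 further kept probes gave differences of 0.88 to 1.36. Cd74, the invariant chain that guides class II molecules to the endosome, lies outside the MHC on chromosome 18. It was at 9.05, 8.63 and 8.98 in wild-type and 9.60, 10.04 and 9.91 in knockout cells, without overlap. It rose by 0.96 ± 0.14 (adjusted p = 0.0123), and its second probe differed by 0.77.

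Other class II genes missed the threshold. H2-Eb1, the beta chain of the I-E molecule, was at 5.09, 5.37 and 5.39 in wild-type cells, where no array detected it. In knockout cells it was at 6.06, 6.91 and 6.80 and was detected on 2 arrays, so the groups were apart but dim. Its difference was 1.31 ± 0.30 (adjusted p = 0.105), at least 1.51-fold. H2-DMa, part of the peptide exchange factor of class II molecules, differed by 0.43 ± 0.11 (adjusted p = 0.138) and its partner H2-DMb1 by 0.44 ± 0.14 (adjusted p = 0.260). The endosomal protease Ctss differed by 0.16 ± 0.10 and the thiol reductase Ifi30 by 0.01 ± 0.13. With single arrays left out the call of H2-Aa held, that of Cd74 was lost without knockout array b or c (adjusted p = 0.0721 and 0.0599), and that of H2-Ab1 held only without wild-type array a (0.00455; 0.0670 to 0.106 otherwise). Of these genes H2-Aa, H2-Ab1, H2-Eb1, H2-DMa and H2-DMb1 are linked to Psmb8 on chromosome 17, while Cd74 is not.

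Class II promoters are known to share a Y box, an inverted CCAAT sequence bound by the factor NF-Y, and the upstream sequences of the 2 class II genes that hold its letters in the window searched are shown. H2-Eb1, one of them, was not called. Of the tested class II genes 8 had a sequence entry, 6 of which do not hold these letters, and H2-Ab1 and Cd74 had none. They are the 250 bases before the start of the RefSeq transcript (GRCm38.p6), 5′ to 3′ on the gene's strand, with the Y box CTGATTGG in capitals.
H2-Aa (chr17:34287824-34288073, minus strand): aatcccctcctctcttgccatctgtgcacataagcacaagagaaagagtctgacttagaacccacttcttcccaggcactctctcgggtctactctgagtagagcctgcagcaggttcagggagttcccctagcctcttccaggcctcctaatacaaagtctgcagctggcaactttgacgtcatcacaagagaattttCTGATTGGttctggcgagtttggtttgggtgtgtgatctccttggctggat
H2-Eb1 (chr17:34305617-34305866, plus strand): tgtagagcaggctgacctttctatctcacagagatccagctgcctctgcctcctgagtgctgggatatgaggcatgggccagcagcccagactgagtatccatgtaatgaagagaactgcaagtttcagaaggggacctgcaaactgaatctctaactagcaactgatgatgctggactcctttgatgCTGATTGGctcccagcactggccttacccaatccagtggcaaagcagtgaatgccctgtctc
The Y box letters were searched on both strands and were chosen after the data were seen. They occurred in 342 of 5420 upstream sequences of tested genes (6.31%), in 3 of 18 of genes that rose (H2-Aa, Glo1 and Psmb9) and in 0 of 19 of genes that fell. These counts describe letters in a window and do not show that a factor binds there.

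In the class I pathway, which displays peptides from the proteasome, 1 gene was called in each direction. Of 16 tested genes 1 rose and 1 fell, against 25 (0.381%) and 20 (0.305%) of all 6563, and the median difference was 0.080. The 2 were H2-M2, above, and H2-T24, another nonclassical class I gene. H2-T24 was at 5.08, 5.08 and 5.07 in wild-type cells, undetected on every array, and at 5.92, 6.08 and 6.41 in knockout cells, where 2 arrays detected it. The fit gave 1.06 ± 0.15 (adjusted p = 0.0107), at least 1.10-fold higher, and the call held with any single array left out. H2-T10, a further nonclassical gene, differed by 1.01 ± 0.25 (adjusted p = 0.142). H2-T23, also of this list, differed by -0.32 ± 0.09 without overlap (adjusted p = 0.209). In all, 4 of 16 genes were higher and 3 lower without overlap, against 485 of all 6563 each way (7.39%). The classical heavy chains H2-K1 and H2-D1 differed by 0.001 ± 0.14 and 0.09 ± 0.12, and B2m, their light chain, by 0.11 ± 0.16. Tap2, a subunit of the peptide transporter, differed by 0.29 ± 0.32 (adjusted p = 0.849).

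Interferon-response genes, which include inducers of the immunoproteasome, held a single called gene. Among 21 tested genes 1 rose and 0 fell, against 25 (0.381%) and 20 (0.305%) of all 6563, with a median of 0.072. The gene that rose was Gbp2, an interferon-inducible GTPase, at 6.29, 5.33 and 5.65 in wild-type and 6.63, 6.94 and 6.89 in knockout cells. The wild-type values were widely spread and 1 of the 3 arrays detected it. Its difference was 1.07 ± 0.21 (adjusted p = 0.0486). The call was lost without any one of 5 arrays, at adjusted p of up to 0.193. Zbp1, a sensor of nucleic acids, was 0.88 ± 0.23 higher and Isg15, a ubiquitin-like modifier, 0.52 lower on the log2 scale (-0.52 ± 0.18), and neither passed (adjusted p = 0.153 and 0.338).

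Receptors and opsonins of phagocytosis changed in both directions. Of 26 tested genes 2 rose and 1 fell, against 25 (0.381%) and 20 (0.305%) of all 6563. Above 0 were 20 of the differences, against 3286 of all 6563, and the median was 0.216. Marco, a scavenger receptor for bacteria and particles that alveolar macrophages express strongly, was at 10.88, 11.04 and 10.89 in wild-type cells. In knockout cells it was at 9.67, 9.48 and 9.83, more than 1 log2 unit below every wild-type array. It fell by 1.27 on the log2 scale (SE 0.12, adjusted p = 3.54e-04). Fcer1g, the signalling chain of Fc receptors, was at 10.43, 10.39 and 10.59 in wild-type and 11.05, 10.98 and 11.05 in knockout cells. It rose by 0.56 ± 0.10 (adjusted p = 0.0269).

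C1qb, a chain of the first complement component, was at 5.32, 5.63 and 5.67 in wild-type cells, undetected, and at 6.27, 6.93 and 6.92 in knockout cells. The groups did not overlap, and C1qb was 1.17 ± 0.17 higher in the fit (adjusted p = 0.0120), at least 1.64-fold. Its partner C1qc differed by 0.74 ± 0.18 (adjusted p = 0.120), and C1qa by 0.09 ± 0.36. C5ar1, the receptor of the complement peptide C5a, was at 5.33, 6.32 and 5.45 in wild-type and 6.66, 6.94 and 6.75 in knockout cells. Its difference of 1.08 ± 0.22 just missed the threshold (adjusted p = 0.0543). The call of Marco held with any single array left out, that of C1qb was lost without knockout array b or c (adjusted p = 0.0709 and 0.0587), and that of Fcer1g held only without wild-type array c (0.0392, otherwise up to 0.104).

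Genes of the NRF2 pathway, which makes glutathione and reduces peroxides, included some that fell. NRF2 is a transcription factor that is itself degraded by the proteasome when cells are not under oxidative stress. Of 28 tested genes 3 fell and 0 rose, against 20 of all 6563 genes (0.305%) that fell. Below 0 were 19 differences and above 0 were 8, against 3276 and 3286 of all 6563, and the median was -0.164 (-0.139 with dim genes at their bound). Without overlap between the genotypes, 8 genes were lower and 4 higher in the knockout, against 485 of all 6563 each way (7.39%). At an unadjusted limma p under 0.05, 8 were lower and 2 higher. Gclm, the modifier subunit of glutamate-cysteine ligase, the first enzyme of glutathione synthesis, was at 9.11, 9.34 and 9.44 in wild-type and 8.46, 8.33 and 8.49 in knockout cells. It fell by 0.87 on the log2 scale (SE 0.16, adjusted p = 0.0340), with the groups well apart.

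Gsta3, a glutathione transferase, was dimmer, at 6.58, 6.63 and 7.18 in wild-type and 5.33, 5.21 and 5.99 in knockout cells, where 1 of the 3 arrays detected it. It fell by 1.29 on the log2 scale (SE 0.21, adjusted p = 0.0188). Srxn1, which restores oxidised peroxiredoxins, was at 9.89, 9.99 and 10.11 in wild-type and 9.48, 9.37 and 9.48 in knockout cells. It fell by 0.55 on the log2 scale (SE 0.10, adjusted p = 0.0340), a small difference with little spread, and its further probes differed by -0.80 and -0.77. The cystine carrier Slc7a11 was at 8.78, 8.64 and 8.70 against 8.35, 7.77 and 7.91, without overlap, but its difference of -0.70 ± 0.18 did not pass (adjusted p = 0.146). Txnrd1, which reduces thioredoxin, differed by -0.35 ± 0.09 (adjusted p = 0.155), and the transcript of NRF2 itself, Nfe2l2, by 0.06 ± 0.09. The call of Gsta3 was lost without any one of 3 arrays, that of Gclm without any one of 5 and that of Srxn1 without any one of 6, at adjusted p of up to 0.0795, 0.135 and 0.135.

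The 3 upstream sequences of these genes are shown because NRF2 is known to bind antioxidant response elements, which resemble the AP-1 sequence. The source, length and orientation are as above. Capitals mark TGACNNNGC (antioxidant response element) in Gclm and Gsta3, in Gclm on the opposite strand, and TGANTCA (AP-1) in Srxn1.
Gclm (chr3:122245307-122245556, plus strand): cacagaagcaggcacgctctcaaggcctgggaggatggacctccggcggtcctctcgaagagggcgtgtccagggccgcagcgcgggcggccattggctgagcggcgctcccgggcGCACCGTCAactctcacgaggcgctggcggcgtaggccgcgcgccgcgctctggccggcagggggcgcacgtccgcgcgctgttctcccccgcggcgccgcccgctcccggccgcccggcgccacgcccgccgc
Gsta3 (chr1:21240335-21240584, plus strand): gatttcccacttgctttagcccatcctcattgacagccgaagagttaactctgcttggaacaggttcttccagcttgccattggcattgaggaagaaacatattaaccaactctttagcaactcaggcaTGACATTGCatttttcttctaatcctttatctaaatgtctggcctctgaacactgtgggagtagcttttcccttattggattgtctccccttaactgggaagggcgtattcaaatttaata
Srxn1 (chr2:152105274-152105523, plus strand): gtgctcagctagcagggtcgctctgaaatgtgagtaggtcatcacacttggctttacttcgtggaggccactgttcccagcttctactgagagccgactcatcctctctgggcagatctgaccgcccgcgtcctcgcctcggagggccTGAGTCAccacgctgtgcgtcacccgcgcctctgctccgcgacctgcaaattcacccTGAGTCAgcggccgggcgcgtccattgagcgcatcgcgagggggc
Searched on both strands, TGACNNNGC occurred in 749 of 5420 upstream sequences (13.8%), in 6 of 19 of genes that fell (H2-M2, Ptprs, Emp1, Gsta3, Hsph1 and Gclm) and in 3 of 18 of genes that rose. The AP-1 letters occurred in 312 of 5420 (5.76%), in 3 of 19 that fell (Mmp13, Emp1 and Srxn1) and in 1 of 18 that rose. A TGACTCA followed by GC is counted under both. The TGAGTCAgc of Srxn1 does not match TGACNNNGC and is counted under the AP-1 letters only. The interferon-response core GAAA, 2 bases of any kind, GAAA occurred in 3.19% of all, in 1 gene that rose (Gbp2) and in 1 that fell (Mmp13), and the NF-kB letters GGGA, a base of any kind, TTTCC in 0.443% of all and in 0 of either group.

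Mmp13, a collagenase, was at 8.32, 8.39 and 8.45 in wild-type and 6.87, 6.70 and 6.41 in knockout cells. It fell by 1.73 on the log2 scale (SE 0.21, adjusted p = 0.00188), and its second probe by a similar -1.52. Il7r, the receptor chain for interleukin-7 and thymic stromal lymphopoietin, was at 7.86, 7.59 and 7.82 in wild-type and 6.04, 6.16 and 5.93 in knockout cells. It fell by 1.71 on the log2 scale (SE 0.19, adjusted p = 0.00119), and its further probes differed by -1.63 and -0.36. Both genes had non-overlapping groups more than 1 log2 unit apart. Ch25h, which makes 25-hydroxycholesterol, was at 9.09, 9.64 and 9.30 in wild-type and 7.20, 7.45 and 7.82 in knockout cells. It fell by 1.85 on the log2 scale (SE 0.19, adjusted p = 5.02e-04), and it was the only one of 28 tested M2 marker genes to pass.

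Mamdc2, an extracellular matrix protein, was at 5.99, 6.06 and 6.29 in wild-type and 7.54, 7.58 and 7.87 in knockout cells. It rose by 1.55 ± 0.12 (adjusted p = 9.3e-05), with each knockout array more than 1 log2 unit above each wild-type array. Cyp4f18, a cytochrome that inactivates leukotriene B4 in mouse, was at 5.35, 5.05 and 6.12 in wild-type and 6.68, 6.89 and 7.53 in knockout cells. It rose by 1.52 ± 0.27 (adjusted p = 0.0310), and 1 of the 3 wild-type arrays detected it. With Pla2g7 it made 2 of 15 tested genes of eicosanoid and related lipid metabolism that rose, against 25 of all 6563 (0.381%), and 0 fell. This list, like the others, was chosen with earlier results of these data known, so the count only describes it. Apoe, the lipid carrier protein, was at 6.06, 6.65 and 6.85 in wild-type and 8.14, 7.82 and 7.67 in knockout cells. It rose by 1.35 ± 0.25 (adjusted p = 0.0369). The calls of Mmp13, Il7r, Ch25h and Mamdc2 held with any single array left out, that of Cyp4f18 was lost without any one of 4 arrays (adjusted p of up to 0.111) and that of Apoe without any one of 6 (up to 0.134).

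Il1b, the pro-inflammatory cytokine gene, was the only one of 9 tested classical inflammatory genes to pass, against 45 of all 6563 (0.686%). It was undetected in wild-type cells, at 5.59, 5.47 and 5.61, and stood at 6.16, 6.19 and 6.54 in knockout cells, where 2 arrays detected it. The fit gave 0.74 ± 0.13 (adjusted p = 0.0340), at least 1.23-fold higher, and the call was lost without any one of 6 arrays (adjusted p of up to 0.125). The median of these 9 genes was -0.116. None of 18 NF-kB components and targets (median -0.113), of 11 immediate early genes (-0.009) or of 18 pattern recognition receptors (-0.009) passed the limma test, and 3, 2 and 2 genes of these groups were lower at an unadjusted p under 0.05, with 0 higher.

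F10, coagulation factor X, was at 11.39, 11.35 and 11.23 in wild-type and 10.39, 10.43 and 10.26 in knockout cells, and was thus among the brightest genes that changed. It fell by 0.96 on the log2 scale (SE 0.11, adjusted p = 0.00156). Emp1, an epithelial membrane protein, was at 9.49, 9.07 and 9.31 against 8.25, 8.01 and 8.24 and fell by 1.12 on the log2 scale (SE 0.14, adjusted p = 0.00333). Prkcb, a protein kinase C, was at 8.78, 8.68 and 8.83 against 7.91, 7.85 and 7.65 and fell by 0.96 on the log2 scale (SE 0.10, adjusted p = 7.72e-04). The groups did not overlap in any of them, and the 3 calls held with any single array left out. Fstl1, a secreted glycoprotein, fell by 1.08 on the log2 scale (SE 0.18, adjusted p = 0.0223), a call lost without any one of 4 arrays (up to 0.0844). Nfic, a transcription factor gene, passed with its brightest probe only, which no knockout array detected (-0.76 ± 0.15 in the fit, at least 1.28-fold lower, adjusted p = 0.0486). Its further kept probes differed by 0.14 and -0.06, so the probes of Nfic disagree. The call was lost without any one of 4 arrays, and in 17 of 20 settings in all. Without wild-type array c another probe of Nfic became the brightest. The value of -0.15 found there (adjusted p = 0.850) is the difference of that probe.

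Among other genes that rose, Dnajc15, a co-chaperone of the mitochondrial inner membrane, was at 7.17, 6.99 and 6.97 in wild-type and 8.57, 8.39 and 8.39 in knockout cells. It rose by 1.41 ± 0.12 (adjusted p = 1.64e-04), with narrow and well separated groups, and the call held with any single array left out. Mcoln3, a cation channel of endosomes, was at 7.04, 6.86 and 6.74 against 8.06, 7.85 and 7.88 and rose by 1.05 ± 0.16 (adjusted p = 0.0123). Phlda3, a target of p53, was at 6.22, 6.30 and 6.71 against 7.32, 7.34 and 7.56 and rose by 0.99 ± 0.14 (adjusted p = 0.0107). Neither overlapped between genotypes. The call of Phlda3 was lost only without knockout array c (0.0587), and that of Mcoln3 without any one of 4 arrays (up to 0.0633). Timmdc1, an assembly factor of mitochondrial complex I, rose by 0.92 ± 0.17 (adjusted p = 0.0400) and lost its call without any one of 4 arrays (up to 0.153). Oxidative phosphorylation as a whole did not pass in any of its 49 tested genes, with a median of 0.047.

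A further 7 called genes, chosen for mention after their values were seen, had differences of 0.59 to 0.69 in size. They were Akap10, which anchors protein kinase A, Rnase4, a secreted ribonuclease, Exosc9, a subunit of the RNA exosome, and Thbd, the thrombin receptor thrombomodulin, which rose, and the mitochondrial transporter Abcb10, the kinase Slk and the hydrolase Cmbl, which fell. The call of each was lost without any one of at least 5 of the 6 arrays, at adjusted p of up to 0.183.

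Genes that mark alveolar macrophages and their handling of lipid held few called genes. Of 28 tested genes 1 rose and 1 fell, against 25 (0.381%) and 20 (0.305%) of all 6563, with a median of -0.003. Fabp5, a fatty acid binding protein, was at 8.79, 8.85 and 8.85 in wild-type and 9.39, 9.36 and 9.53 in knockout cells. It rose by 0.60 ± 0.10 (adjusted p = 0.0257), and its second probe by 0.50, but the call was lost without any one of 6 arrays (up to 0.0983). The gene that fell was Marco. Csf2rb2, a receptor chain for interleukin-3, differed by -0.62 ± 0.13 (adjusted p = 0.0808).

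M2 marker genes, which IL-4 is known to induce, held a single called gene before IL-4. Of 28 tested genes only Ch25h passed, against 45 of all 6563 (0.686%). The median was -0.014 (-0.121 without the 7 genes undetected in both groups and with other dim genes at their bound). The mannose receptor Mrc1 differed by 0.01 ± 0.09 and the chitinase-like Chil3 by 0.16 ± 0.10. Arg1, the arginase of M2 cells, Retnla and Cish were among the 7 undetected genes, so the arrays give no difference for them. Slc7a2, an arginine carrier, was at 9.41, 9.35 and 9.18 in wild-type and 8.92, 8.59 and 8.81 in knockout cells, without overlap, and just missed the threshold (-0.54 ± 0.11, adjusted p = 0.0583).

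Several cell functions held no called gene in either direction in the limma test. These were the unfolded protein response (23 tested genes, median -0.011), the amino acid response (19, -0.070), autophagy and lysosome (43, 0.041), ubiquitin enzymes (32, 0.024), glycolysis (26, -0.004), the cell cycle (28, 0.001), ribosome biogenesis (22, 0.032), the Bcl2 family (15, 0.085), iron handling (14, 0.082) and cholesterol synthesis (22, 0.031). At an unadjusted p under 0.05 they held between 0 and 4 higher and between 0 and 5 lower genes each. Of 19 chaperone genes 1 fell, against 20 of all 6563 (0.305%), with a median of -0.077 over the group. It was Hsph1, a large heat shock protein, which fell by 0.59 on the log2 scale (SE 0.10, adjusted p = 0.0269). Its levels were 8.29, 8.37 and 8.28 in wild-type and 7.63, 7.72 and 7.83 in knockout cells, and its call was lost without any one of 6 arrays (up to 0.104).

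**Figure D3:**
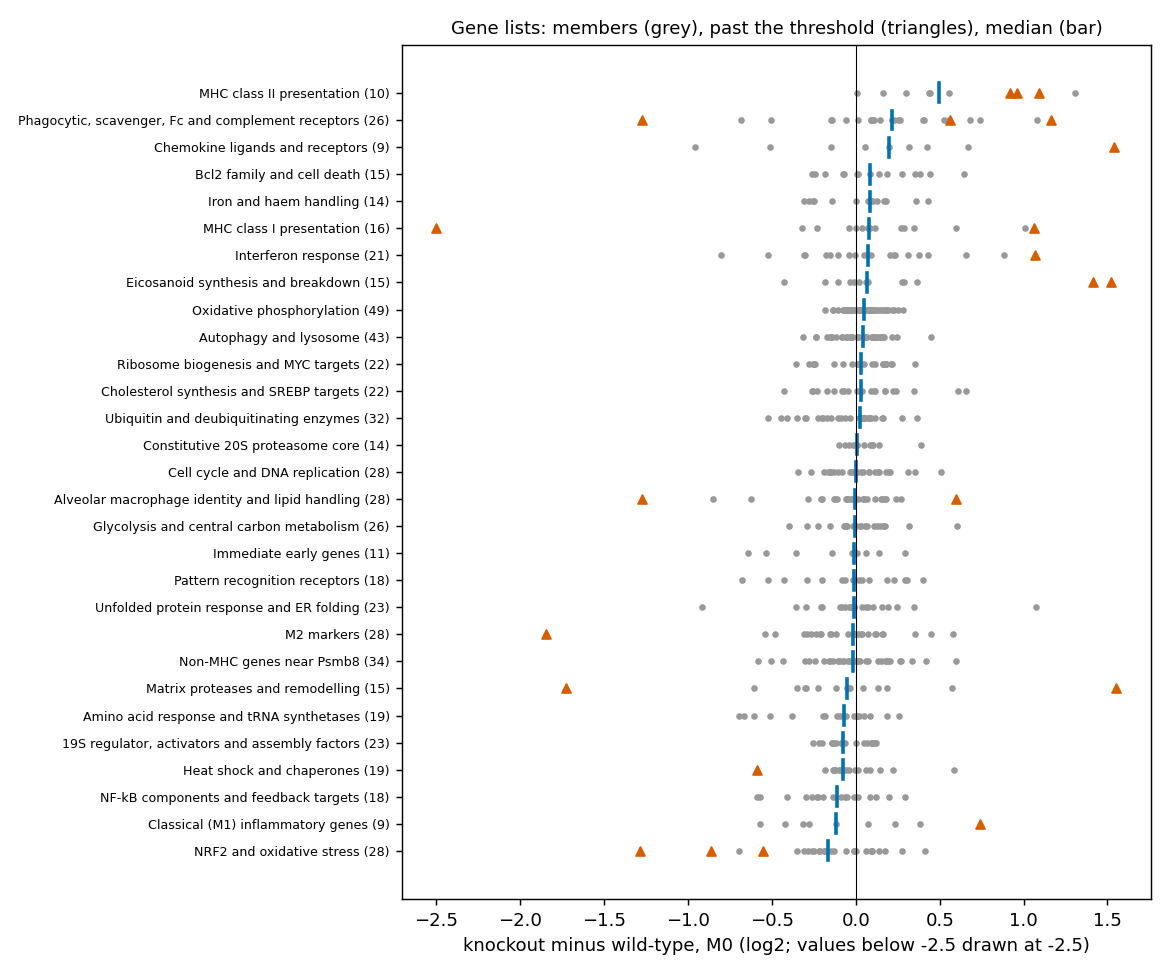
Each row is a gene list with its number of tested genes, and each grey point a member placed by its knockout minus wild-type difference in M0 cells (log2; H2-M2 is drawn at the left edge). Triangles are members past an adjusted p of 0.05 and bars are list medians, of which that of MHC class II presentation, 0.50, lies farthest right.

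**Figure D4:**
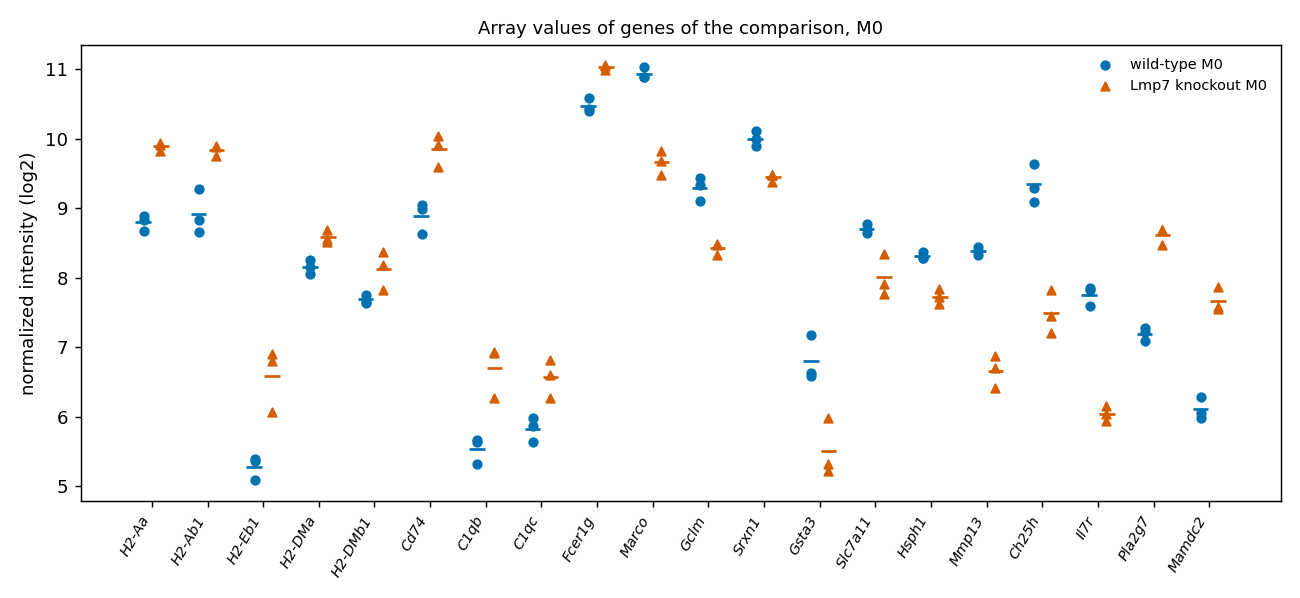
Normalized intensity (log2, y axis) of 20 genes on each of the 3 wild-type (circles) and 3 knockout (triangles) M0 arrays, with group means as bars. The groups do not overlap in any of the 20 genes shown, as in 970 of all 6563 genes (14.8%). Those that did not pass the test (H2-Eb1, H2-DMa, H2-DMb1, C1qc and Slc7a11) were chosen after their values were seen.

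Markers of other cells that a lavage can hold were examined because fewer cells of a type and less RNA per cell cannot be told apart in bulk samples. Of 14 neutrophil markers 4 were tested, and their summed linear level ranged from 316 to 364 in wild-type and from 460 to 609 in knockout arrays (280 to 318 against 369 to 504 without Cxcr2). Cxcr2, a chemokine receptor of neutrophils, was undetected in wild-type cells at 5.16, 5.51 and 5.24, and was at 6.73, 7.28 and 6.52 on knockout arrays, all of which detected it. It rose by 1.54 ± 0.27 in the fit (adjusted p = 0.0296), at least 1.80-fold, a call lost without any one of 6 arrays (up to 0.114). S100a8, an abundant protein of neutrophils, was at 7.42, 7.65 and 7.76 against 8.38, 8.05 and 8.04 (0.55 ± 0.15, adjusted p = 0.194), while S100a9, Retnlg, Ngp, Ltf, Mpo, Elane and Mmp8 were below the detection filter and Camp was undetected on all 6 arrays. The part of these cells in the differences was not tested.

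Of 14 markers of monocytes and interstitial macrophages 4 were tested, with a summed level of 199 to 251 in wild-type and 301 to 343 in knockout arrays (149 to 208 against 180 to 265 without C1qb, which overlap). Of these 4 tested genes, C1qa, C1qb and C1qc had differences above 0. The remaining 1 was lower in the knockout without overlap, as in 485 of all 6563 genes (7.39%), but did not pass. The defining markers Ccr2, Cx3cr1, Plac8, F13a1, Lyve1 and Folr2 were below the detection filter. Il7r also marks T cells, of whose 16 listed markers (with those of NK cells) 3 were tested. Their sum was 1266 to 1430 in wild-type and 1076 to 1157 in knockout arrays, but it includes Il7r, and without it was 1037 to 1237 against 1014 to 1091, which overlap. Cd3d, Cd3e, Cd3g, Cd4 and Cd8a were below the detection filter. No marker of B cells, eosinophils and mast cells, dendritic cells, lung epithelium, endothelium and stroma, or erythroid cells and platelets passed the limma test, over 2 to 4 tested genes each. The club cell gene Scgb1a1 was at 5.65, 7.01 and 6.70 in wild-type and 5.56, 5.90 and 5.56 in knockout cells (-0.78 ± 0.28, adjusted p = 0.365), and the epithelial sum was 1358 to 1651 against 1162 to 1285. Xist, expressed in female cells, and Eif2s3y, on the Y chromosome, were both detected on all 6 arrays. Of 4 tested genes of this kind 0 passed. Xist differed by 0.25 ± 0.22 (adjusted p = 0.799). Eif2s3y was at 8.69, 8.70 and 8.68 in wild-type and 8.57, 8.35 and 8.19 in knockout cells. Its groups did not overlap, with a difference of -0.32 ± 0.14 (adjusted p = 0.501). A part of the animals' sex in the differences was not tested.

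The same genotypes were compared on the 6 M2 arrays, which share no array with the M0 comparison but share its estimate of spread. All 12 arrays were normalized together, and the labels do not say whether M0 and M2 cells came from different animals. In the M2 comparison 134 genes passed (2.04%), 44 higher (0.67%) and 90 lower (1.37%). Of the 25 genes that rose in M0 cells 24 had a difference above 0 in M2 cells, and all 20 that fell had one below 0, while 58.1% of all genes had the same sign in both states. Of the former 11 and of the latter 12 also passed in M2 cells, and 0 passed in the opposite direction. These are 44% and 60% of the M0 lists, and 25% and 13.3% of the M2 lists. Their median differences in M2 cells were 0.59 and -0.66. Over all genes the differences in the 2 states correlated at r = 0.37 (rho = 0.251) across genes, which are not independent replicates.

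H2-M2 and Psmb8 were also lower in M2 cells, at -4.27 ± 0.28 and -2.12 ± 0.14 (limma adjusted p = 3.1e-05 for both). H2-M2 was at 10.13, 10.19 and 9.79 in wild-type M2 cells and at 5.12, 5.6 and 6.58 in knockout M2 cells. Il7r was at 8.80, 8.54 and 8.25 against 5.41, 6.16 and 5.87 (-2.72 ± 0.19) and Mmp13 at 10.16, 9.97 and 9.96 against 7.66, 8.59 and 8.30 (-1.85 ± 0.21). Both were thus far lower in the knockout in either state. Among the higher genes Cxcr2 was at 6.18, 6.22 and 6.96 in wild-type and 8.21, 8.78 and 7.95 in knockout M2 cells (1.86 ± 0.27). H2-Aa was at 9.42, 9.37 and 9.26 against 10.07, 9.94 and 10.17 (0.71 ± 0.10). The MHC class II list had a median of 0.53 in M2 cells with 3 genes higher, and the NRF2 list a median of -0.133 with 6 lower and 0 higher.

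Whether a genotype difference itself changed with IL-4 was tested as the M2 difference minus the M0 difference. A total of 7 genes passed (0.107%), and 436 had an unadjusted p under 0.05. Retnla and Cish, 2 of the 7, were undetected on all 6 M0 arrays, so their values restate the M2 difference. Of the 45 genes called in M0 cells, Pla2g7 and Mamdc2 passed this test, and 18 had an unadjusted p under 0.05. Pla2g7 was at 6.75, 6.56 and 6.73 in wild-type and 6.80, 7.0 and 6.77 in knockout M2 cells, so the genotypes lay close together after IL-4. Its difference changed by -1.23 ± 0.16 (limma adjusted p = 0.0150). Mamdc2 was at 5.30, 5.37 and 5.25 against 5.36, 5.58 and 5.47 in M2 cells, and its difference changed by -1.39 ± 0.17 (adjusted p = 0.0150). For Pla2g7 the higher level in the knockout was thus seen before IL-4 and had shrunk to 0.18 after it. Mamdc2 lay below the lowest detected signal on all 6 M2 arrays, where its difference could only be near 0 (0.16). Its value in this test thus largely restates the M0 difference. Without wild-type array a, b or c 3, 8 or 1 genes passed this test, and without knockout array a, b or c 2, 0 or 3 (387 at an unadjusted p under 0.05 where 0 passed in limma).

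Il1b was the only one of the 45 genes whose direction turned, from 0.74 in M0 to -0.32 in M2 cells. Its levels rose to 7.68, 7.59 and 7.72 in wild-type and 7.41, 7.12 and 7.51 in knockout M2 cells, and the change of the difference, -1.06 ± 0.19, did not pass (limma adjusted p = 0.0984). Mcoln3 and Gbp2 differed by 0.005 and 0.08 in M2 cells, and the changes of their differences did not pass either (adjusted p = 0.215 and 0.474).

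**Figure D5:**
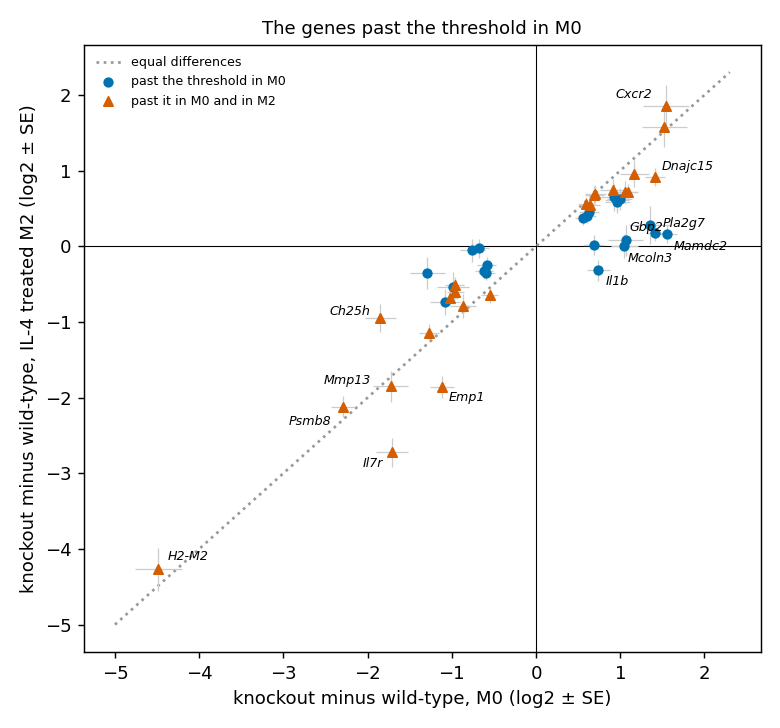
The 45 genes past the threshold in M0 cells, by their knockout minus wild-type difference in M0 (x axis) and in M2 cells (y axis; both log2, bars are SE). Triangles passed in both states, and the dotted line marks equal differences. Pla2g7 and Mamdc2 lie near 0 on the y axis, and Il1b alone lies below 0 there with a higher level in M0. Mamdc2 was undetected on all M2 arrays.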

How the data were processed

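RNA of 12 samples was amplified, biotin-labelled and hybridised to Illumina BeadArrays, per the labels' protocols. The deposited table holds, per the file headers, a non-normalized intensity and a detection p-value for each probe and array. These intensities ran from -72 to 12659, with 37.5% below 0, so a background had been subtracted by the authors. The software and the genome build are not given in the sources used here. A second deposited table holds the authors' processed intensity values on a linear scale (16 to 11275, median 86), whose offset is not stated. By rank correlation, 12 of its 12 columns matched best to an array of their own group in the other table (lowest 0.99987). The columns of the first table give group and not replicate number, so arrays are named a, b and c within a group. Arrays have no count depth, and their number limits the precision.

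In R 4.3.3, limma 3.58.1 corrected the background (normexp from detection p-values, offset 16), quantile normalized and took log2. Probes detected (p under 0.05) on at least 3 of 12 arrays were kept. Probes were named through the platform annotation (23978 with 1 symbol, 0 with several, 1719 with none; 23962 matched RefSeq symbols). A gene was its kept probe of highest mean. All 12 arrays entered a model of 4 group means with 8 residual degrees of freedom (lmFit, contrasts.fit, eBayes), so the 2 comparisons share a spread. Benjamini-Hochberg adjustment ran over 6563 genes, and genes passed at an adjusted p under 0.05. Every adjusted p in the text is from limma, and ± after a difference is its SE. Where no array of a group detected a gene, the fold is a bound: the mean of the bright group against the mean, per array, of the higher of the lowest detected signal and the gene's own value. Gene lists are described by counts and medians only. The members and lists were chosen with earlier results of these data known. Genes named were the largest 15 called in each direction, called list members, the proteasome genes, called genes near Psmb8, and genes of the difference test. Other uncalled genes, and the Y box, were chosen after their values were seen. Plots used matplotlib 3.10.9 in Python 3.11.15.

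Replicate numbers, held only by the authors' table, were checked for pairing. In M0 cells the deviations of same-numbered samples correlated at 0.383, 0.249 and 0.116, each over 0.1. Different-numbered samples correlated at -0.313 to 0.135, so the lowest same-numbered value does not stand out. A fit with the number as a block was run as an alternative. Pairing comes from the data; the labels do not state it. On simulated data (10 simulations of the M0 comparison on 6563 genes, 200 changed) the model recovered 25.5% of changes of 0.5 log2 units, 71.8% of 1 and 97.3% of 2, with 5.36% false calls. The simulated noise was independent between genes and arrays. It lacked the differences that real arrays share across genes, so these rates may not hold for the real arrays. The alternatives were other scalings, offsets, filters, probe choices and variance models, array weights, the authors' values, and leaving out arrays.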

Additional observations from a re-analysis of the deposited data

Results flagged for a closer look

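The 7 genes whose genotype difference differed between M2 and M0 cells by the test of that difference are listed here, as M2 difference minus M0 difference on the log2 scale with its SE and limma adjusted p. In 5 of them the value was below 0. Clec4d, a C-type lectin receptor, changed by -1.74 ± 0.21 (adjusted p = 0.0150), from -0.29 in M0 to -2.03 in M2 cells. Pla2g7 changed by -1.23 ± 0.16 (adjusted p = 0.0150), from 1.42 to 0.18. Mamdc2 had -1.39 ± 0.17 (adjusted p = 0.0150), from 1.55 to 0.16. It was undetected on all 6 M2 arrays, so its value largely restates the M0 difference. Gpr65, a proton-sensing receptor, changed by -1.11 ± 0.16 (adjusted p = 0.0352), from 0.31 to -0.80, and Fpr2, a formyl peptide receptor, by -0.95 ± 0.15 (adjusted p = 0.050), from -0.28 to -1.24. In 2 the value was above 0, but both were undetected on all 6 M0 arrays, where the genotype difference could only be near 0, so it restates the M2 difference and does not show that the genotype difference changed with IL-4. Retnla, an M2 marker, had 1.5 ± 0.21 (adjusted p = 0.0312) and was 1.57 higher in knockout M2 cells. Cish, an inhibitor of cytokine signalling, had 0.96 ± 0.15 (adjusted p = 0.050) and was 0.94 higher there.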

How the results depend on the processing

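Psmb8 kept its direction and its call in every setting run, from -2.43 to -1.52. The 45 M0 calls became 24 with median scaling, 14 with only the 6 arrays of each state, 109 with eBayes trend and robust, 23 without the M0 arrays of lowest detected share, and 17 to 31 with single arrays left out (17 without knockout array b, 18 without knockout c, 23 without knockout a, 24 without wild-type c, 29 without wild-type a). The other settings, the replicate block among them (61 calls), stayed within 1.5 times of 45. Over up to 21 settings, 10 genes kept their M0 call in every one: Psmb8, H2-M2, Ch25h, Mmp13, Il7r, Marco, Pla2g7, Mamdc2, Dnajc15 and H2-Aa. Of 907 gene-setting pairs 640 kept the call, 266 lost it and 1 reversed: Gsta3 at 0.033 with no detection filter, where another probe represents the gene. With single arrays left out, uncalled Psmb6 ran from -0.131 to 0.00565 and Psmb7 from -0.11 to 0.14. The block was run on the authors' values, which alone lost Il1b, Nfic, Rnase4, Slk and Thbd. With the block Abcb10, Akap10, Gbp2, Nfic, Rnase4 and Thbd were not called, and with the block within each state Flot1, Il1b and Slk were not called either. H2-Eb1 passed on the authors' values with and without the block, C5ar1 only with it. The 134 M2 calls became 47 with median scaling, 212 with the replicate block, 45 with only 6 arrays, 212 with detection p under 0.01 on all 12 arrays and 277 with trend and robust. The 7 genes of the difference test became 1 with median scaling, 0 with the replicate block within each state, 4 with the filter on M0 arrays, 13 with every probe, 24 with trend and robust, 0 without the arrays of lowest share, 4 without chromosome 17 and 0 to 8 without single arrays. Where 0 genes passed in limma, 532 (block), 423 (lowest share) and 387 (without knockout b) had an unadjusted p under 0.05. The cause of these moves was not tested, apart from fewer arrays or genes. Slide as a block was not run. Dim genes near background are limited to bounds.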

Other observations

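Of the 574 kept probes without a gene symbol, 4 passed in the M0 comparison when every kept probe was tested on its own. Of these, 3 were higher and 1 was lower in the knockout, with differences of 0.58, 0.67, 1.22 and -0.58. Fth1, the ferritin heavy chain, held the same top value of 13.34 on all 6 M0 arrays, so quantile normalization leaves no genotype difference to be seen for it.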
